A study of Mus musculus with 39 samples.

Results

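The genes described here are 10 genes of the gastrula organizer, the axial midline and the endoderm: *Foxa2*, *Noto*, *Shh*, *Foxj1*, *Gsc*, *Chrd*, *Nog*, *Cer1*, *Hhex* and *Sox17*. They were taken by symbol from the deposited tables, where each of the 10 was found once among 47643 genes, both in the table of 35 single epiblasts and in that of 4 epiblast stem cell (EpiSC) lines. The question put to them is how their expression differs between *Stat3* null and WT mouse epiblasts. The stages are those before gastrulation (E5.5), at its onset (E6.5) and at the time when the node and the axial mesendoderm form (E7.5). Epiblasts came from matings between *Stat3* heterozygous mice on the CD1 background and were either *Stat3* null or WT. At E5.5 there were 2 WT epiblasts beside 4 null ones, at E6.5 there were 9 WT beside 8 null, and at E7.5 the 9 WT stood beside 3 null. Each library held the RNA of 1 embryo, whose extraembryonic ectoderm and visceral endoderm had been taken off by hand and whose genotype had been read from extraembryonic tissue. In the null allele, which every cell of the embryo carries, a neomycin cassette replaces some exons of *Stat3*, so transcripts of the remaining exons are still counted. The EpiSC lines (null lines 2 and 6, WT lines 8 and 13) were each a single line grown with FGF2, activin A and the tankyrase inhibitor XAV939, and their libraries were made with another kit, so they were analysed apart.

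The organizer of the mouse gastrula is a small group of cells at the anterior end of the primitive streak. It gives rise to the node, the notochord, the prechordal plate and the definitive endoderm, and it secretes proteins that hold back BMP, Nodal and Wnt signals around it. FOXA2 is a forkhead transcription factor needed for the node and notochord, and also for endoderm. NOTO acts in the node and posterior notochord and lies upstream of FOXJ1, which switches on genes of motile cilia, and the cilia of the node then set the left-right axis. SHH is the ligand that the notochord sends to the neural floor plate. GSC is a homeobox repressor of the early organizer and prechordal plate. Chordin (*Chrd*) and Noggin (*Nog*) bind BMP ligands outside the cell, and Cerberus (*Cer1*) binds Nodal and BMP. HHEX marks anterior endoderm, and SOX17 is required for definitive endoderm. *Foxa2*, *Cer1*, *Hhex* and *Sox17* are also known from the visceral endoderm, the extraembryonic layer around the epiblast.

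A few libraries stood apart. *Stat3*, read as a check of the labels, lay between 1.22 and 1.48 CPM (counts per 1000000 total counts of the library) in the E7.5 null epiblasts and between 4.80 and 25.3 CPM in the WT, and the genotypes were also separate at E5.5 and in EpiSCs, but at E6.5 their ranges overlapped (1.41 to 7.59 in null, 5.84 to 27.2 in WT). The E5.5 null epiblast 1 held 0.654 CPM of the epiblast gene *Pou5f1*, against 100.6 CPM or more in every other E5.5 library, and 273 CPM of *Elf5*, an extraembryonic ectoderm gene. The E7.5 WT epiblast 3 summed to 1282 CPM over 6 epiblast genes and to 8.97 CPM over 8 mesoderm genes, whereas the other 8 WT lay between 265 and 615 CPM and between 173 and 385 CPM. Whether the labels of these 2 libraries hold was not tested, so some of the values that rest on them are also given without them. The other values of their groups include them. *Stat3* was at 10.7 CPM in E7.5 WT 3, inside the WT range given above. It was at 9.21 CPM in E5.5 null 1, below the mean of the 4 E5.5 null that include it (16.8 ± 5.93, SD) and below the E5.5 WT. Marker sums also moved with genotype: at E7.5 the 17 visceral endoderm genes that were fixed as a list summed to 59.5 to 317 CPM in null and to 466 to 4822 CPM in WT, with 17 of 17 below 0 on the fitted log2 scale and 3 of them called (*Afp*, *Trf*, *Spink1*). *Hnf4a* and *Cited1* were at 0 in 1 null library each, *Fgb* in 2 null, *Apoa2* in 2 null and 4 WT, and *Sox7* in 2 WT. Epiblast genes went the other way, with 6 of 6 above 0 and sums of 943 to 1349 CPM in null. Of the mesoderm genes 6 of 8 were below 0 (sums of 25.0 to 187 CPM in null), with *Msgn1* called, and of the extraembryonic ectoderm genes 6 of 7 tested (sums of 28.7 to 51.9 CPM in null and 31.1 to 282 in WT), with *Rhox5* called. The part of these differences in the members' values was not tested beyond the covariate fits given below. As the visceral endoderm sum did not overlap between genotypes at E7.5, such a fit cannot separate it from genotype. Total counts lay between 22941210 and 79013960 per epiblast. In bulk libraries such as these, fewer cells of a type and less RNA per cell cannot be told apart.

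The members lie on 9 chromosomes of GRCm38. *Foxa2* is at chr2:148042877-148046969 on the minus strand, *Noto* at chr6:85423886-85428877 on the plus strand, *Shh* at chr5:28456815-28467256 on the minus strand and *Foxj1* at chr11:116330704-116335399 on the minus strand. *Gsc* is at chr12:104471209-104473330 (minus), *Chrd* at chr16:20733127-20742384 (plus), *Nog* at chr11:89300638-89302332 (minus), *Cer1* at chr4:82881751-82885148 (minus), *Hhex* at chr19:37434810-37440731 (plus) and *Sox17* at chr1:4490931-4497354 (minus). All 10 are protein coding. The annotation places genes of the other strand over *Shh* (*9530036O11Rik*, *Gm26894*), *Chrd* (*Thpo*) and *Sox17* (*Gm37587*), and since the strand setting of the counting is not given in the sources used here, reads of these pairs could not be told apart.

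Promoter windows of 300 bases, from 250 bases before to 50 bases after a start site, were taken from RefSeq (GRCm38.p6) and found for 6 of the 10 genes, with 3 start sites for *Foxa2*. *Shh*, *Foxj1*, *Nog* and *Sox17* had no entry. Windows of 3 genes are shown 5′ to 3′ on the strand of the gene, for the contrast in their expression in epiblasts described below. *Noto* had no count before E7.5, *Gsc* had its lowest mean of the epiblast groups in the E7.5 WT, and *Foxa2* was present at every stage. Capitals mark ATCAAAG, a motif of the TCF/LEF factors, which act in Wnt signaling.
*Noto*, chr6:85423636-85423935, plus strand: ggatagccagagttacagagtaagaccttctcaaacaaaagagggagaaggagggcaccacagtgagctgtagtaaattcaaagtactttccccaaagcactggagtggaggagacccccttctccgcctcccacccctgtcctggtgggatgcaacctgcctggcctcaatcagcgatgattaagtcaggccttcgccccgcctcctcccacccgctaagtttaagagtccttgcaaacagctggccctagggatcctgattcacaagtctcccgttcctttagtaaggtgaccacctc
*Gsc*, chr12:104473187-104473486, minus strand: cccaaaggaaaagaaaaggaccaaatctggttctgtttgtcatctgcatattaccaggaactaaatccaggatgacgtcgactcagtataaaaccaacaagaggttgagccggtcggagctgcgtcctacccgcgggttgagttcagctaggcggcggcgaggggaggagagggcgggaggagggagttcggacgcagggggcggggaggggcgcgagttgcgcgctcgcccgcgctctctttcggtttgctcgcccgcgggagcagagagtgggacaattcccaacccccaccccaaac
*Foxa2*, an internal start site, chr2:148045415-148045714, minus strand: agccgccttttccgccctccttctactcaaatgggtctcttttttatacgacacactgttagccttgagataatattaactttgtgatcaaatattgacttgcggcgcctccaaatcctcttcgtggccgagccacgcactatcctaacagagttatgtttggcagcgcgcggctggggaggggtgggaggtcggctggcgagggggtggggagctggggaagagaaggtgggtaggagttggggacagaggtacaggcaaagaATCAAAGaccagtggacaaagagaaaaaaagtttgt
The motif was searched on both strands and was found in this 1 of the 8 windows, 15 bases after the start site, and in 3.73% of 32851 promoters of the same length. None of the 8 windows held the other 6 motifs that were searched on both strands: a forkhead motif (TGTTTAC, in 3.65% of all promoters), the palindromic STAT motif (TTCNNNGAA, 8.30%), a FOXH1 motif (TGTGGATT, 0.855%), a GLI motif (GACCACCCA, 0.253%), a bicoid-class homeobox motif (TAATCC, 7.06%) and an RFX motif (GTTGCC, 12.5%). GC content was 54.0% in the *Noto* window, 60.3% in the *Gsc* window and 51.7% in this *Foxa2* window, and from 51.7% to 78.3% over the 8 windows, with a median of 52.7% over all promoters.

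Per kb of exon, so that genes can be set beside each other, *Foxa2* had the highest mean level of the 10 in all 4 groups of E5.5 and E6.5, and *Cer1* in both groups of E7.5. At E7.5 the first 3 places were the same in both genotypes: *Cer1* (37.5 ± 15.3 CPM per kb in WT and 30.4 ± 13.1 in null, SD, n = 9 and 3), *Foxa2* (15.4 ± 3.36 and 21.2 ± 5.87) and *Foxj1* (9.36 ± 5.44 and 13.3 ± 4.36). Below them the order differed. *Sox17* and *Nog* took places 4 and 5 in WT, at 5.34 ± 1.86 and 4.33 ± 2.12 CPM per kb, and places 8 and 9 in null, at 1.36 ± 0.430 and 0.590 ± 0.534. *Gsc* and *Chrd* took places 4 and 5 in null, at 7.74 ± 4.65 and 5.86 ± 1.29 CPM per kb, and places 9 and 8 in WT, at 1.67 ± 2.57 and 2.55 ± 1.14.

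**Figure D1:**
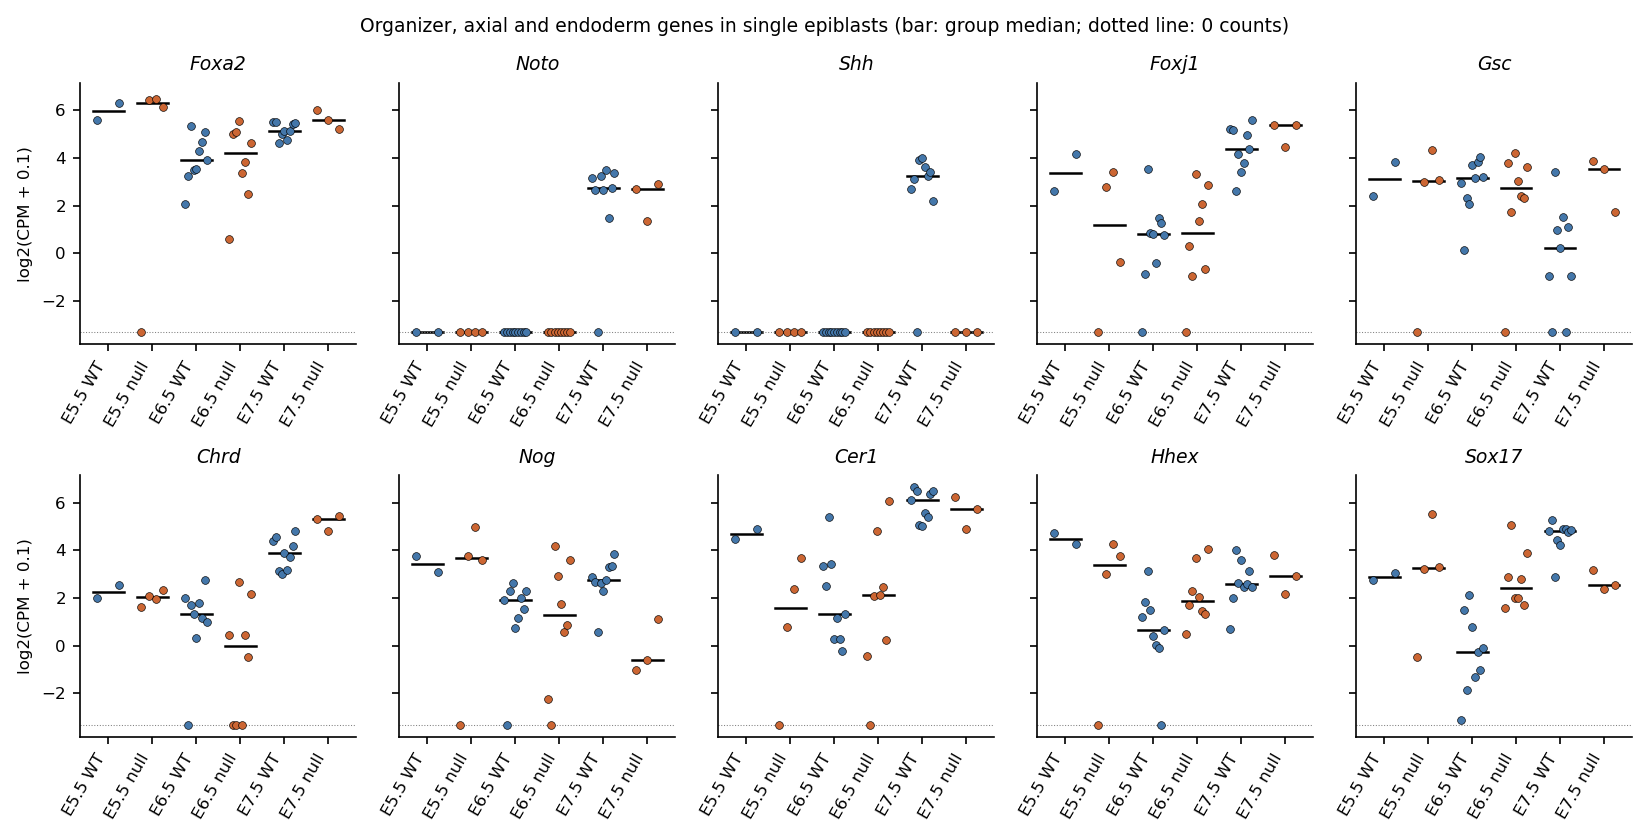
Level of each of the 10 genes in every epiblast, as log2(CPM + 0.1), by stage and genotype (WT blue, null orange, bar at the group median, dotted line at 0 counts). *Noto* and *Shh* had 0 counts in all E5.5 and E6.5 epiblasts, and at E7.5 *Shh* was counted in 8 of 9 WT and in 0 of 3 null.

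The first comparison asks which of the genes changed in WT between E6.5 and E7.5. Of the 8 members tested, 4 were called (absolute log2 fold change over 1 and adjusted p under 0.05 in edgeR), all 4 higher at E7.5: *Sox17*, *Chrd*, *Foxj1* and *Cer1*. Over all genes, 8.83% were called, and 5.74% were called higher. *Noto* and *Shh* did not pass the filter on low counts, because the E7.5 WT epiblast 3 had 0 counts of both, and are described by their counts. The median log2 fold change of the 8 was 1.96, against 0.01 over all genes tested.

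*Noto* had 0 counts in all 9 E6.5 WT epiblasts, where the 3 counts that a 0 allows correspond to a mean of 0.0765 CPM. At E7.5 it was at 0 in WT 3 and between 2.71 and 11.3 CPM in the other 8, with a mean of 6.82 ± 3.64 (SD, n = 9), at least 89.1-fold above that limit. *Shh* followed the same presence and absence: 0 counts in all E6.5 WT, 0 in E7.5 WT 3, and between 4.45 and 15.8 CPM in the other 8, with a mean of 9.13 ± 5.02, at least 119.3-fold above the limit. Either gene was thus counted in 8 of 9 libraries of E7.5 against 0 of 9 of E6.5, which is given as a description of the counts. Limits and bounds of this kind cover counting error only, as reads copied by PCR are not independent molecules. *Foxj1*, the ciliary regulator, ran from 0 through a median of 1.63 to 11.6 CPM at E6.5 and from 5.95 through 20.6 to 48.6 CPM at E7.5, with a log2 fold change of 3.16 ± 0.74 (SE, adjusted p = 0.00417). Its groups overlapped through E6.5 WT 3, the highest of its stage, and E7.5 WT 3, the lowest of its own. *Foxa2* ran from 4.12 through 15.2 to 40.1 CPM at E6.5 and from 24.4 through 34.96 to 45.5 CPM at E7.5. Its log2 fold change of 0.85 ± 0.32 was not called (adjusted p = 0.0545).

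Of the secreted antagonists, *Chrd* ran from 0 through 2.41 to 6.63 CPM at E6.5 and from 7.91 through 14.5 to 27.8 CPM at E7.5, without overlap, and rose by 2.46 ± 0.55 on the log2 scale (adjusted p = 0.0026). *Nog*, its partner as a BMP antagonist, ran from 0 through 3.71 to 6.08 CPM and from 1.37 through 6.61 to 14.1 CPM, a log2 fold change of 1.06 ± 0.56 that was not called (adjusted p = 0.186). *Cer1* was between 0.757 and 42.1 CPM at E6.5, with a median of 2.44, and between 32.7 and 100.2 CPM at E7.5, with a median of 68.2. It rose by 2.82 ± 0.71 (adjusted p = 0.0072), and its groups overlapped through E6.5 WT 3. *Gsc* had the opposite sign: its median was 8.75 CPM at E6.5 (0.986 to 16.2) and 1.07 CPM at E7.5 (0 in WT 2 and WT 7, 10.4 in WT 3), with a log2 fold change of −2.07 ± 0.81 (adjusted p = 0.0708).

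Of the endoderm genes, *Sox17* rose the most of the 8 tested. It lay between 0.0141 and 4.30 CPM at E6.5, with a median of 0.723, and between 7.19 and 38.7 CPM at E7.5, with a median of 27.9, without overlap. The share of all genes that, like *Sox17* and *Chrd*, did not overlap between these groups is not given. The log2 fold change was 4.27 ± 0.67 (adjusted p = 0.00019), and the two-sided exact permutation p of 4.11e-05, shared with *Chrd*, is the smallest that 9 against 9 libraries can give. *Hhex* ran from 0 through 1.47 to 8.77 CPM and from 1.52 through 5.81 to 16.2 CPM, a log2 fold change of 1.47 ± 0.63 (adjusted p = 0.0933). The 4 calls were made in 18 of 18 fits that left out 1 library. Without E7.5 WT 3, *Gsc* was called as well, lower at −3.08 ± 0.75 (adjusted p = 0.00406, with 10.9% of all genes called), and without E6.5 WT 3 so were *Foxa2* (1.09, adjusted p = 0.00851) and *Hhex* (2.07, adjusted p = 0.0108, with 10.4% called). *Noto* and *Shh* enter such fits through the E7.5 libraries alone and are not counted. The 10 extraembryonic ectoderm genes of the fixed list summed to 16.4 to 118 CPM at E6.5 and to 31.1 to 282 CPM at E7.5 in WT, and with this sum as a covariate 0 of the 8 members were called. Of the list, *Cdx2* and *Fgfr2* were called higher at E7.5, while *Elf5* was at no more than 0.498 CPM in the E7.5 WT. Which tissue the sum reads at E7.5 was not tested.

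Between E5.5 and E6.5, by contrast, all 8 members with counts had a log2 fold change below 0 in WT, but 0 of the 8 were called by edgeR, where 5.15% of all genes were called. The unadjusted p was under 0.05 for 3 of them, as it was for 4772 of all 20763 genes tested. DESeq2 called 3 (*Foxa2*, *Foxj1*, *Hhex*), where it called 9.32% of all genes. *Hhex* was at 26.5 and 18.8 CPM in the 2 E5.5 WT and between 0 and 8.77 CPM at E6.5 (−3.18 ± 0.96, adjusted p = 0.0598). *Foxa2* was at 48.8 and 78.3 CPM and then between 4.12 and 40.1 CPM (−1.70 ± 0.57, adjusted p = 0.0888). *Sox17* was at 6.54 and 8.05 CPM and then at no more than 4.30 CPM (−2.51 ± 1.07, adjusted p = 0.175). The groups did not overlap for these 3 genes nor for *Nog*, but the share of all genes without overlap between these groups is not given. With 2 E5.5 libraries the exact permutation test cannot go below p = 0.0182. The visceral endoderm genes summed to 6244 and 7870 CPM in the E5.5 WT and to a median of 215 CPM (85.6 to 5935) in the E6.5 WT. With this sum as a covariate 0 of the 8 were called. As the sum did not overlap between the stages, that fit cannot separate it from stage, and its part in these differences was not tested otherwise.

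The second comparison asks how the genotypes differ at E7.5. All 10 members passed the filter on low counts and 3 were called, all 3 lower in null: *Nog*, *Sox17* and *Shh*. *Shh* was at 0 in every null library and passed through the WT libraries alone, so that it had to differ, and it is described by its counts. Over all genes, 1.17% were called, 1.09% lower and 0.0813% higher. No member was called higher. The median log2 fold change of the other 9 was 0.31, against −0.02 over all genes. The ranges of the genotypes overlapped for all 10, and for *Shh*, *Nog* and *Sox17* they did so through 1 library, the WT epiblast 3.

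Of *Noto* and *Shh*, both expressed in the notochord, the first was counted in each null epiblast and the second in none. *Noto* was at 6.47, 2.45 and 7.47 CPM in the 3 null epiblasts (5.46 ± 2.66, SD, n = 3), within the WT range of 0 to 11.3 CPM with its median of 6.51. The log2 fold change was −0.23 ± 0.89 (adjusted p = 0.944). *Shh* had 0 counts in each of the 3 null epiblasts, in libraries of 37143484 to 41655234 counts, and between 116 and 472 counts in the 8 WT epiblasts other than WT 3. The WT mean was at least 120.8-fold above the 0.0756 CPM that 3 counts per null library allow. *Shh* was thus counted in 8 of 9 WT and in 0 of 3 null, which is given as a description of the counts. The fitted fold change of *Shh* depends on the prior count and is not given. *Noto* had counts in 3 of 3 null and in 8 of 9 WT.

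**Figure D2:**
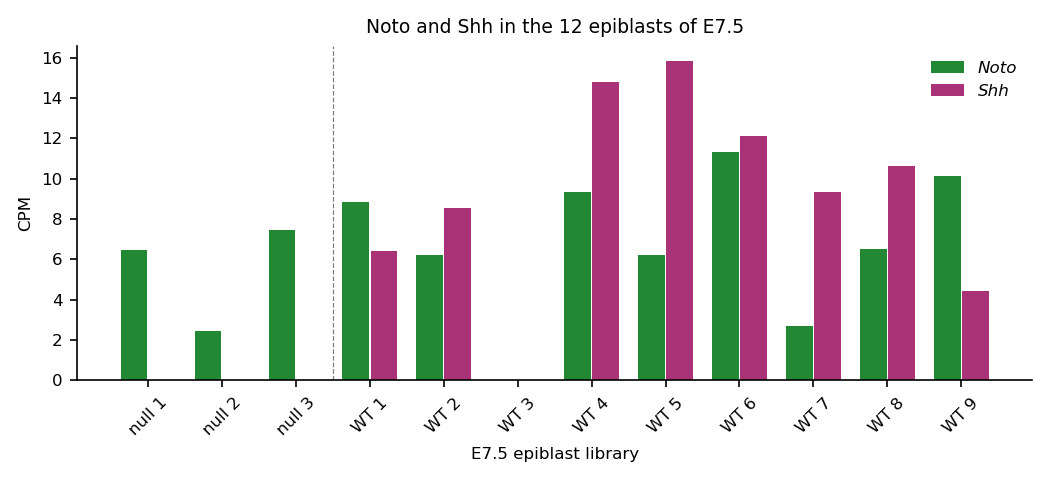
*Noto* and *Shh* (CPM, bars from 0) in each of the 3 null and 9 WT epiblasts of E7.5, with a dashed line between the genotypes. The 3 null libraries held *Noto* at 2.45 to 7.47 CPM and no count of *Shh*, WT 3 held neither, and the other 8 WT held both.

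The forkhead factors of the node had higher mean levels in null than in WT but were not called. *Foxj1* was at 41.6, 21.8 and 41.5 CPM in null (34.98 ± 11.4) and between 5.95 and 48.6 CPM in WT, with a median of 20.6, and the log2 fold change was 0.60 ± 0.51 (adjusted p = 0.613). *Foxa2* was at 65.1, 47.9 and 37.6 CPM in null (50.2 ± 13.9) and between 24.4 and 45.5 CPM in WT (36.6 ± 7.96). Null 1 and null 2 were above every WT library, null 3 was within the WT range, and the log2 fold change of 0.54 ± 0.19 was not called (adjusted p = 0.123).

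*Chrd* and *Nog* had fold changes of opposite sign, of which that of *Nog* was called. *Chrd* was at 39.4, 27.6 and 43.1 CPM in null (36.7 ± 8.08) and between 7.91 and 27.8 CPM in WT (15.95 ± 7.15, median 14.5). Null 1 and null 3 were above all WT, null 2 lay just under WT 9, and the log2 fold change was 1.29 ± 0.32 (adjusted p = 0.0522, exact permutation p = 0.00909 where the smallest possible is 0.00455). *Nog* was at 0.395, 0.565 and 2.04 CPM in null (1.0 ± 0.905) and between 1.37 and 14.1 CPM in WT (7.33 ± 3.599, median 6.61). It fell by 2.78 ± 0.64 on the log2 scale (adjusted p = 0.0417, exact permutation p = 0.00909), and null 3 lay above WT 3 but below the other 8 WT. Within a library, the ratio of *Chrd* to *Nog* counts was 99.7, 48.9 and 21.1 in the null epiblasts and 1.32 to 6.33 in the WT, where WT 3 was the highest. This ratio was chosen after its values were seen and has no test.

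**Figure D3:**
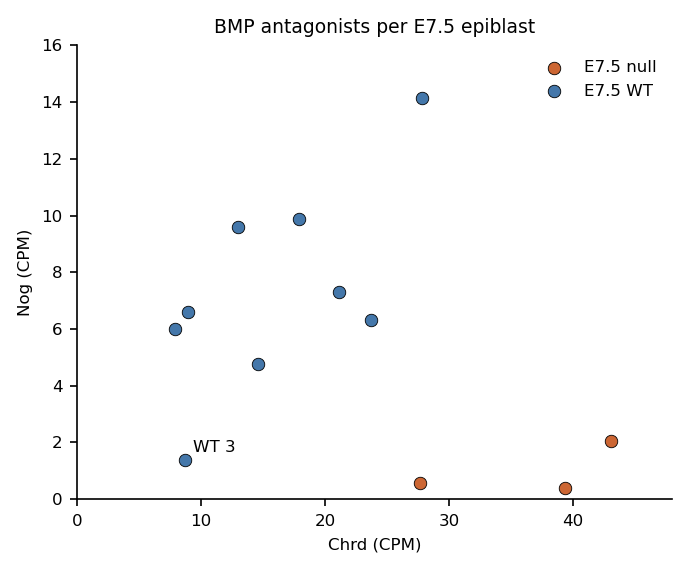
*Nog* against *Chrd* (both in CPM, linear axes) in the 12 epiblasts of E7.5. The null epiblasts (orange) sit at 27.6 to 43.1 CPM of *Chrd* and no more than 2.04 CPM of *Nog*, and the WT (blue) at no more than 27.8 CPM of *Chrd*, with WT 3 at 1.37 CPM of *Nog* and the others at 4.76 CPM or more.

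*Gsc* was at 14.6, 11.6 and 3.24 CPM in null (9.81 ± 5.89) and at 10.4 CPM in WT 3, while the other 8 WT lay between 0 and 2.78 CPM. The log2 fold change of 2.24 ± 1.19 was not called with all libraries (adjusted p = 0.338) and was called without WT 3 (3.26 ± 0.98, adjusted p = 0.0438). *Cer1* was at 75.2, 29.6 and 53.7 CPM in null, against 32.7 to 100.2 CPM in WT (median 68.2), and did not differ beyond its spread (−0.23 ± 0.40, adjusted p = 0.855). *Hhex* was at 13.7, 4.39 and 7.47 CPM in null, against 1.52 to 16.2 CPM in WT (median 5.81), with a log2 fold change of 0.31 ± 0.52 (adjusted p = 0.844).

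*Sox17* was at 8.84, 5.01 and 5.64 CPM in null (6.496 ± 2.05), at 7.19 CPM in WT 3 and between 18.4 and 38.7 CPM in the other 8 WT. It fell by 1.89 ± 0.38 (adjusted p = 0.0324, exact permutation p = 0.00909). Its ratio to *Foxa2*, the other endoderm regulator, was 0.136, 0.104 and 0.150 in null, 0.295 in WT 3 and 0.527 to 1.11 in the other WT, a ratio likewise chosen after its values were seen. The visceral endoderm sum was lower in null as well, and at E6.5 both *Sox17* and this sum had higher medians in null than in WT.

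**Figure D4:**
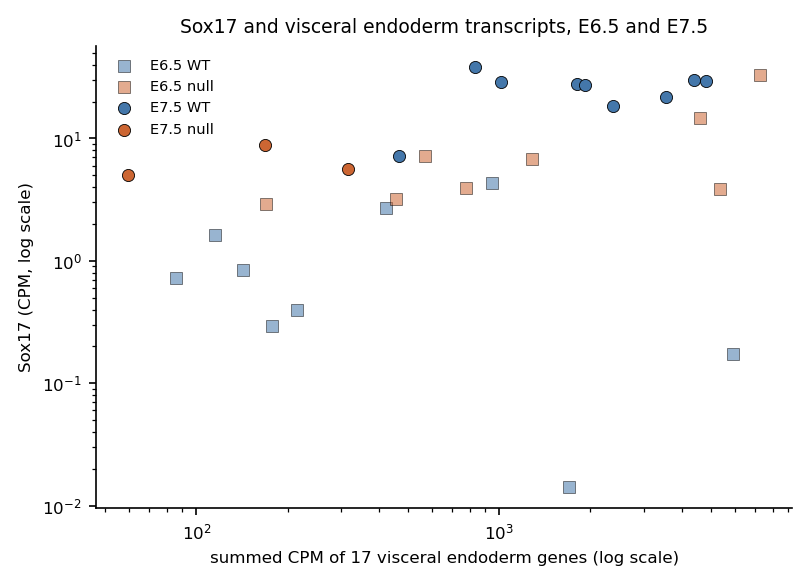
*Sox17* (CPM) against the summed CPM of 17 visceral endoderm genes in the E6.5 (squares) and E7.5 (circles) epiblasts, WT blue and null orange, both axes logarithmic. At E7.5 the null lie at 5.01 to 8.84 CPM of *Sox17* with sums of 59.5 to 317 CPM and the WT at 7.19 to 38.7 CPM with sums of 466 to 4822 CPM, and at E6.5 the null lie at 2.91 to 33.0 CPM with sums of 170 to 7281 CPM and the WT at 0.0141 to 4.30 CPM with sums of 85.6 to 5935 CPM.

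These calls rested on few libraries. Leaving out any of the 3 null epiblasts, or WT 1, 4, 6, 7 or 8, left 0 calls, with adjusted p up to 0.191 for *Nog* and 0.164 for *Sox17*. Without WT 2 or WT 5 *Sox17* alone was called, in fits that called 145 of 19503 and 73 of 19432 genes. Without WT 9 *Sox17* and *Chrd* were called, in a fit that called 155 of 19513 genes (adjusted p from 0.0175 to 0.205 for *Chrd* over the 12 fits). Without WT 3, beside *Shh*, 4 were called: *Sox17* (−2.01 ± 0.24, adjusted p = 8.48e-05), *Nog* (−2.91 ± 0.52, adjusted p = 0.00146), *Chrd* (1.21 ± 0.31, adjusted p = 0.0175) and *Gsc*, in a fit that called 5.68% of all genes. With the visceral endoderm sum or the extraembryonic ectoderm sum as a covariate, or with all 35 libraries in 1 fit, 0 of 10 were called. The visceral endoderm sum did not overlap between genotypes and the extraembryonic ectoderm sum did so through WT 3 alone, so these covariates are hard to separate from genotype. With the visceral endoderm covariate and without WT 3, where 0.298% of all genes were called, *Sox17* (−2.25 ± 0.45, adjusted p = 0.0483) was called beside *Shh*, while *Chrd* was at 0.12 ± 0.56 (adjusted p = 0.982). DESeq2, which called 5.03% of all genes, called *Chrd* higher and *Nog* and *Sox17* lower beside *Shh*.

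**Figure D5:**
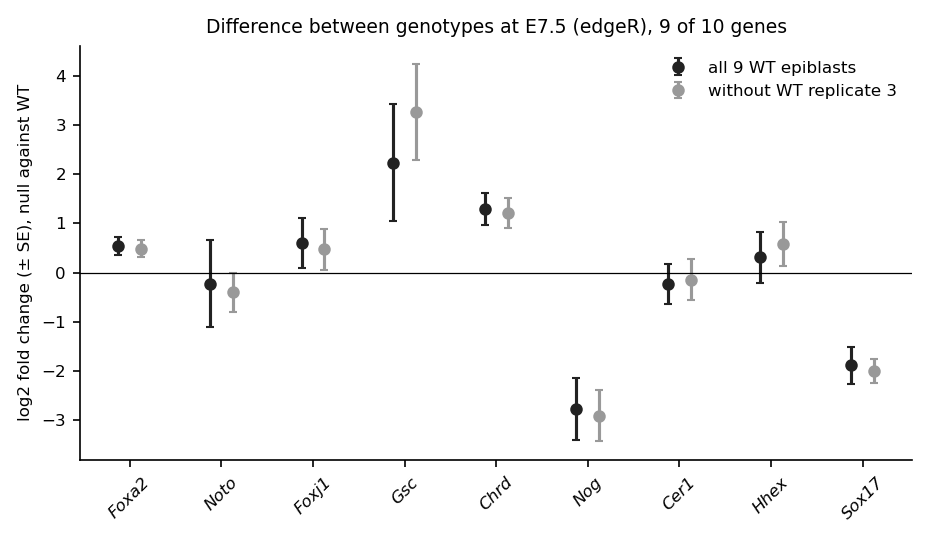
Log2 fold change of E7.5 null against WT by edgeR with its SE for 9 of the 10 genes, with all 9 WT (black) and without WT 3 (grey); *Shh* is left out because its null libraries are all at 0. *Nog* and *Sox17* lie below 0 by 2.78 and 1.89, *Chrd* lies above by 1.29, and the value of *Gsc* goes from 2.24 to 3.26 without WT 3.

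The E7.5 null epiblasts were then set against the stage before, where *Noto* passed the filter on low counts through the E7.5 libraries alone and is described by its counts. Against E6.5 null, 0 of the 8 other members tested were called by edgeR (0.103% of all genes) and by DESeq2 (1.52%). In edgeR *Foxj1* and *Chrd* had an unadjusted p under 0.05, as did 1582 of all 19460 genes tested. Against E6.5 WT, 0 of the 8 were called by edgeR (0.162% of all genes), with 5 at an unadjusted p under 0.05, as were 1752 of all 19749 genes. DESeq2 called *Foxj1* and *Chrd* higher (1.15%). In edgeR *Chrd* was called without E6.5 WT 2 (adjusted p = 0.00187) and *Foxj1* without E6.5 WT 3 (adjusted p = 0.0251). The share of all genes called in these 2 fits is not given. These comparisons share the E7.5 null libraries with each other and with the genotype comparison, and the second shares the E6.5 WT with the WT comparison above.

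Between E6.5 and E7.5, *Noto* went from 0 counts in 8 of 8 null epiblasts to 91 to 311 counts in 3 of 3, at least 65.8-fold above the limit of the E6.5 null. *Shh* was at 0 in all 11. *Foxj1* had 0 to 9.82 CPM in E6.5 null and 21.8 to 41.6 CPM in E7.5 null, and *Chrd* had 0 in 3 of 8 and no more than 6.28 CPM in E6.5 null and 27.6 to 43.1 CPM in E7.5 null. Neither gene overlapped between the stages, but the share of all genes without overlap between these groups is not given. The log2 fold changes of 3.47 ± 1.04 and 4.44 ± 1.29 were not called (adjusted p = 0.313 and 0.29). Beside them, the WT values over the same interval were 3.16 ± 0.74 and 2.46 ± 0.55. *Sox17*, the member with the largest fitted change among those tested in WT, had a log2 fold change of −0.55 ± 0.74 from E6.5 null to E7.5 null (adjusted p = 0.991). *Gsc* was at 0.27 ± 1.05 in null (adjusted p = 1) beside −2.07 ± 0.81 in WT.

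Whether the genotype difference itself changed between E6.5 and E7.5 was tested as an interaction in 1 fit of both stages. With edgeR it called 0 of 10 members (0.443% of all genes), among them *Noto* and *Shh*, which have no usable estimate. *Sox17* and *Nog* were at an unadjusted p under 0.05, for which the share of all genes is not given. *Sox17* had the smallest p, with an interaction of −4.82 ± 1.21 on the log2 scale (adjusted p = 0.0561). It was called without E7.5 WT 3 (−4.94 ± 1.204, adjusted p = 0.0177), in a fit whose share of all genes called is not given. DESeq2 called *Sox17*, where it called 2.69% of all genes. At E6.5 *Sox17* was higher in null, with a median of 5.37 CPM (2.91 to 33.0) against 0.723 CPM (0.0141 to 4.30) in WT. Of the 8 null epiblasts 4 lay above all WT, and the log2 fold change of 2.92 ± 0.78 was not called by edgeR (p = 0.00132, adjusted p = 0.358, exact permutation p = 0.000823) but was called by DESeq2 (adjusted p = 0.0186, with 0.164% of all genes called). In the 6 libraries of E6.5 with over 40000000 counts it was 3.84 ± 1.76, and in the 11 with fewer it was 2.21 ± 0.67. The visceral endoderm sum at E6.5 had a median of 1029 CPM in null and 215 CPM in WT. With it as a covariate the value was 1.98 ± 0.89 (adjusted p = 0.57). *Nog* had an interaction of −3.52 ± 1.502 (adjusted p = 0.266). For *Noto* and *Shh*, at 0 in all E6.5 libraries, the interaction has no usable estimate.

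At E6.5 edgeR called 0 of the 8 members tested and 0.00% of all 17095 genes. An unadjusted p under 0.05 was found for 1 member, *Sox17*, and for 1414 of all genes. The other 7 had adjusted p between 0.73 (*Hhex*, 1.24 ± 0.73) and 0.99 (*Gsc*). The earliest axial regulator, *Foxa2*, was at 19.0 ± 12.1 CPM in WT and 21.0 ± 15.7 CPM in null (SD, n = 9 and 8). At E5.5 edgeR and DESeq2 both called 0 of 8, with none at an unadjusted p under 0.05 (0.00% of 18690 genes called by edgeR, 0.0749% by DESeq2). *Cer1*, known at this stage from the anterior visceral endoderm, was at 0, 1.61, 5.06 and 12.7 CPM in null epiblasts 1 to 4 and at 22.0 and 29.7 CPM in WT. These ranges did not overlap, and the log2 fold change was −2.41 ± 1.57 (adjusted p = 0.999), in a design whose smallest exact permutation p is 0.0667. Null 1 was at 0 for *Foxa2*, *Foxj1*, *Gsc*, *Nog*, *Cer1* and *Hhex*, and without it *Foxa2* was at 81.8 ± 10.1 CPM in the other 3 null, against 63.5 ± 20.9 CPM in WT.

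Genes of the pathways around the members were read from lists. At E7.5, 1 of 11 Hedgehog pathway genes was called between genotypes, *Boc*, which encodes a co-receptor of SHH, lower in null (−2.34 ± 0.51, adjusted p = 0.0349). The co-receptor *Cdon* (−0.69, adjusted p = 0.0905) and the effector *Gli2* (−0.54, adjusted p = 0.116) were not called, and 9 of the 11 were below 0, with a median of −0.60 against −0.02 over all genes. In WT from E6.5 to E7.5, 4 of the 11 were called, all higher (*Gli1*, *Gli2*, *Hhip*, *Boc*), with *Gli2* at 1.22 ± 0.18. None of the 4 BMP ligands, the targets of Chordin and Noggin, was called between genotypes (*Bmp4* −2.57, adjusted p = 0.121; *Bmp2* −0.76, adjusted p = 0.138), and all 4 were below 0. The 3 of them that could be tested in WT rose by 1.65 (*Bmp2*) to 3.68 (*Bmp7*).

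Of 14 node cilia genes, which act with *Foxj1* and *Noto*, 1 was called at E7.5, *Dand5*, a Nodal antagonist of the node margin, lower in null (−4.73 ± 1.14, adjusted p = 0.0455). *Ccdc40* (0.71, adjusted p = 0.033) and *Rfx3* (0.54, adjusted p = 0.0433) passed the p threshold but not that of the fold, both higher in null. Most of the list had the other sign: 9 of the 14 were below 0 and 5 above, with a median of −0.50 against −0.02 over all genes. In WT from E6.5 to E7.5, 3 of 12 were called, all higher (*Pkd1l1* 3.95, *Dnah5* 5.18, *Dnah11* 1.28), and *Pkd1l1* was also the call among 13 in E7.5 null against E6.5 WT. Of 12 axial and anterior streak partners, none was called between genotypes at E7.5 (*Foxd4* −6.98, *Lhx1* 1.97 and *Nodal* 2.21, adjusted p from 0.0583 to 0.0736), and in WT 5 of 11 fell, among them *Nodal* (−2.87) and *Otx2* (−1.41), and 2 rose. Of 7 other secreted antagonists none was called at E7.5, with *Sfrp1* at −0.77 (adjusted p = 0.0312), under the fold threshold, and 2 rose in WT (*Frzb* 2.505, *Sfrp1* 1.17). Of 8 definitive endoderm genes, *Trh* was higher in null at E7.5 (1.32, adjusted p = 0.0265) and the keratins *Krt19* (−2.60, adjusted p = 0.0299) and *Krt8* (−1.86, adjusted p = 0.0446) were lower.

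Across the 35 epiblast libraries, the genes with the level most like that of a member were found by Pearson's r of log2(CPM + 0.1) among 15111 genes with a mean of at least 1 CPM. For *Noto* they were *Cfap44* (r = 0.977), *Cfap126* (0.952) and *Dnah6* (0.950), genes of motile cilia. For *Shh* they were *Notum* (0.997), *Hoxb3os* (0.994) and *Hoxa3* (0.987). *Foxa2* was followed by *Tgfbr3* (0.959), *Ntn1* (0.900) and *Lrig3* (0.875), *Cer1* by *Sema6d* (0.910), *Foxa1* (0.832) and *Bmp2* (0.826), and *Sox17* by *Snx33* (0.846), *Ube2j1* (0.804) and *Casp8* (0.771). These values are descriptions over libraries that share stage and genotype, and *Noto* and *Shh* share their 0 in every library before E7.5.

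In EpiSCs, edgeR called 0 of the 9 members tested (0.106% of all genes), all 9 of which had a log2 fold change below 0 in the null lines. Of them 4 had an unadjusted p under 0.05, for which the share of all genes is not given. The median was −0.85, against −0.01 over all genes. *Cer1* was at 3.74 and 2.86 CPM in null lines 2 and 6 and at 12.7 and 4.73 CPM in WT lines 8 and 13 (−1.43 ± 0.53, adjusted p = 0.53). It was called by DESeq2 (0.989% of all genes). In edgeR without WT line 13 its log2 fold change was −1.99, in a fit that assumes that the lone WT line varies like the null lines. *Gsc* was at 0.173 and 0.393 CPM in null and 1.26 and 0.588 CPM in WT (−1.70 ± 0.59, adjusted p = 0.443). *Sox17* was at 1.81 and 2.31 CPM against 6.32 and 2.78 CPM (−1.16 ± 0.43, adjusted p = 0.502), and *Nog* at 0.851 and 0.753 CPM against 1.63 and 1.22 CPM (−0.85 ± 0.34, adjusted p = 0.524). For *Cer1*, *Gsc*, *Sox17*, *Nog* and *Foxj1* both null lines were below both WT lines, the smallest exact permutation p being 0.333 with 2 lines each. The share of all genes that separate in this way is not given. *Shh*, absent from the E7.5 null epiblasts, was counted in every EpiSC line, at 0.394 and 1.80 CPM in null and 4.79 and 1.44 CPM in WT (−1.51 ± 0.98, adjusted p = 0.782). *Noto* had 4 counts in WT line 8 and 0 in the other 3.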

How the data were processed

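RNA was measured in single hand-dissected epiblasts (a low-input SMARTer stranded kit) and in EpiSC lines (NEBNext kit). Per the submitters' notes, the authors trimmed reads with Trim Galore, aligned them with HISAT2 to GRCm38 and counted them with StringTie, and they deposited whole-number counts per gene without normalization. StringTie derives such counts from coverage. The annotation release and strand setting are not given in the sources used here. Groups came from the sample labels. The members and the lists were chosen with earlier results of these data known. Named genes are the 10 members, *Stat3*, up to 3 genes of smallest p per list, and 3 genes most like each of 5 members. Single marker genes, and further list genes that were called, were named after their values were seen.

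The main test was edgeR 4.0.16 under R 4.3.3 (TMM normalization, filterByExpr by group with minimum count 10 and minimum total 15, robust quasi-likelihood fit and test, two-sided, Benjamini-Hochberg adjustment over all genes tested), each comparison on its own groups. Genes were called at an adjusted p under 0.05 and a fold change over 1 in size on the log2 scale. SE is the fold change divided by the square root of F. CPM is the count per 1000000 of a library's total, and total counts were 22941210 to 38635127 at E5.5, 27913392 to 79013960 at E6.5, 25793920 to 41655234 at E7.5 and 63445877 to 127583699 in EpiSCs. Exact permutation tests used log2 CPM (prior count 2), unadjusted. Where counts were 0, 3 counts per library set the limit. The alternatives were DESeq2 1.42.0, RLE factors, no filter, voom with quality weights (limma 3.58.1), a replicate block, marker covariates, all 35 epiblasts in 1 fit, a depth term, and leaving out each library. *Apoc2*, which has more than 1 entry, was left out of its marker list.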

Additional observations from a re-analysis of the deposited data

Results flagged for a closer look

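In groups of 4 to 10 libraries, 12 values of a member lay far from all others of their group by Dixon's test on log2(CPM + 0.1). They came out of 34 groups looked at, where chance gives about 1 in 20. This scale spreads values near 0 more than high ones, and all 12 were the lowest of their group. *Gsc* in E7.5 WT 3, at 10.4 CPM with the others at no more than 2.78, was not flagged on it. Of these, 4 were in the E7.5 WT epiblast 3: *Noto* (0 CPM, others 2.71 to 11.3), *Shh* (0 CPM, others 4.45 to 15.8), *Nog* (1.37 CPM, others 4.76 to 14.1) and *Sox17* (7.19 CPM, others 18.4 to 38.7). The E5.5 null epiblast 1 had 0 CPM of *Foxa2* (others 70.1 to 88.1), *Nog* (others 12.1 to 31.4) and *Hhex* (others 7.93 to 18.9), and it is the library that held 0.654 CPM of *Pou5f1*. The E6.5 WT epiblast 2 was low for *Gsc* (0.986 CPM), *Chrd* (0 CPM) and *Nog* (0 CPM). *Gsc* was at 0 CPM in the E6.5 null epiblast 1, whose 10 extraembryonic ectoderm genes summed to 1225 CPM. *Hhex* was at 0 CPM in the E6.5 WT epiblast 8. What sets these libraries apart was not tested, nor whether the labels of E7.5 WT 3 and E5.5 null 1 hold.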

How the results depend on the processing

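Counts of members called, which include *Shh* and *Noto* where they passed the filter, moved as follows. Against the 3 in E7.5 null against WT, the visceral endoderm covariate, the extraembryonic ectoderm covariate and all 35 libraries in 1 fit gave 0, and leaving out each library gave 0 to 5. In E7.5 WT against E6.5 WT (4) the extraembryonic ectoderm covariate gave 0, voom 7, the visceral endoderm covariate without E7.5 WT replicate 3 (added after the data were seen) 7, and leaving out each library 4 to 8. For E6.5 null against WT, DESeq2 and voom gave 1 instead of 0. For E6.5 WT against E5.5 WT (0), DESeq2 gave 3, voom 5 and all 35 libraries 1. For E7.5 null against E6.5 null (0), DESeq2 gave 1, no filter 1, voom 4, all 35 libraries 2 and leaving out 0 to 1. For E7.5 null against E6.5 WT (1), DESeq2 gave 3, voom 7, the visceral endoderm covariate 2, the extraembryonic ectoderm covariate 3 and leaving out 0 to 2. For the interaction (0), DESeq2 and voom gave 2 each, the depth term 1 and leaving out each E7.5 library 0 to 1. In EpiSCs (0), DESeq2 gave 1 and leaving out each line 0 to 1. The causes were not tested. Of the members' fitted values, 0 of 196 under the alternatives changed sign where the main value was called, and 74 of 1459 did over all members and comparisons with a usable estimate, 9 of these from a value over 1 in size.

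The number of all genes called also moved by over 1.5 times. In E7.5 null against WT (231) DESeq2 gave 990, voom 1198, the covariates 2 and 17, all 35 libraries 11 and leaving out a library 0 to 1105, the most without WT replicate 3. In E7.5 WT against E6.5 WT (1518) no filter gave 2805, voom 2610 and the extraembryonic ectoderm covariate 171. In E6.5 WT against E5.5 WT (1070) DESeq2 gave 1936, voom 2131, the covariates 242 and 1. From 0, E6.5 null against WT went to 28 (DESeq2), 92 (voom) and 5 (extraembryonic ectoderm covariate), and E5.5 null against WT to 14 (DESeq2) and 5 (all 35). In E7.5 null against E6.5 null (20) DESeq2 gave 296, voom 437, the covariates 4 and 12 and all 35 libraries 104; against E6.5 WT (32) DESeq2 gave 227, voom 315 and the covariates 79 and 127. For the interaction (98) DESeq2 gave 595, voom 1499, no filter 35, the covariates 5 and 1, all 35 libraries 59 and the depth term 289. In EpiSCs (22) DESeq2 gave 205 and no filter 75.

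Signs changed in these values of the report. In E7.5 null against WT they were *Noto* (1.52 with the visceral endoderm covariate, 4.45 with the extraembryonic ectoderm covariate, 0.20 with the added fit, −0.52 to 0.13 leaving out a library), *Hhex* (−0.25 and −0.56 with the 2 covariates, −0.21 to 0.62 leaving out a library), *Cer1* (−0.57 to 0.0623 leaving out a library), and *Foxa2* (−0.26) and *Foxj1* (−0.22) with the added fit. In E7.5 null against E6.5 null, *Sox17* went from −0.55 to 0.27 with voom, 1.34 with the visceral endoderm covariate, 0.0202 with the depth term and −0.82 to 0.0936 leaving out a library, and *Gsc* from 0.27 to −2.46 with the extraembryonic ectoderm covariate and −0.14 to 0.69 leaving out a library. *Cer1* in E6.5 WT against E5.5 WT went from −1.56 to 0.94 and 0.91 with the 2 covariates, *Nog* in E7.5 WT against E6.5 WT from 1.06 to −0.43 and *Gsc* in the interaction from 2.33 to −0.94 with the extraembryonic ectoderm covariate, and *Hhex* in E6.5 null against WT from 1.24 to −0.69 within libraries over 40000000 counts. Of values not printed in the report, *Nog* in E7.5 null against E6.5 null went from −2.46 to 1.74 with the visceral endoderm covariate.

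What a replicate number shared between genotypes stands for is not given in the sources used here. Deviations from group means correlated between same-numbered libraries from −0.28 to 0.06 at E7.5, −0.01 to 0.22 at E6.5 and 0.02 to 0.24 at E5.5. The best match had the same number in 2 of 2 pairs at E5.5, 3 of 8 at E6.5 and 0 of 3 at E7.5. At E6.5, replicates 1 to 3 of both genotypes had 43606327 to 79013960 total counts and 15171 to 19380 genes with a count. The other E6.5 libraries had 27913392 to 36540246 counts and 20338 to 22310 such genes. Whether these replicates were processed apart was not tested. With a replicate block, 0 members were called in either comparison of E7.5 null with WT libraries, 5 in E7.5 WT against E6.5 WT and 1 in E6.5 WT against E5.5 WT, and *Noto* in E7.5 null against WT was at 0.74. *Nog* in E7.5 null against E6.5 null was at 1.38 and *Sox17* in E5.5 null against WT went from 1.14 to −1.55. All genes called with the block were 0 in E7.5 null against WT, 0 against E6.5 null, 81 against E6.5 WT, 101 in E6.5 WT against E5.5 WT and 22 for the interaction. No paired analysis was possible for EpiSCs because the lines share no numbers.

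Limits: 3 null epiblasts at E7.5 and 2 WT at E5.5 limit the comparisons they enter. Null and WT differ in sums over genes listed as markers of extraembryonic tissue. The study that reported these data describes null embryos as delayed in development against their littermates. Genotype and developmental stage can therefore not be told apart among epiblasts of the same day. Litters are not given in the labels, so that a shared litter and genotype or stage cannot be told apart.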
